A study of Mus musculus with 12 samples.

Results

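The comparison described here sets old against young hematopoietic stem cells within the fraction that was sorted as negative for IL27RA, the receptor chain that binds the cytokine IL27. It uses 6 of the 12 libraries of the series, chosen by title and age, and all genes in the count table. The mice were of the strain C57BL/6 and the tissue was bone marrow. Young donors were 2 months old (3 libraries) and old donors 28 months old (3 libraries). Each library held 50 sorted cells, and the cDNA came from Smart-Seq2, which copies whole transcripts, carries no molecular identifiers and does not mark strand. The sources used here do not give the gates that defined the stem cells. The other 6 libraries hold IL27RA+ cells of the same ages (3 young, 3 old). They share in the estimate of spread and are otherwise named where used. Old replicate 1 carries a source label that reads young, against a title and an age that read old, and was analysed as old. Whether libraries of 1 group came from different mice is not stated, so the p-values cover the spread among these libraries, and part of that spread may be technical.

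Blood stem cells stay mostly outside the cell cycle and renew all blood lineages. In old mice the stem cell pool is known to grow, its output to lean toward myeloid cells and platelets, and a recurring set of transcripts, with Selp and Aldh1a1 among them, to be more abundant. IL27 consists of the subunits p28 and EBI3 and signals through IL27RA paired with gp130, which activates JAK kinases and STAT factors.

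The young libraries held 19.1 to 24.2 M reads in genes (M, 1e6 reads) and the old ones 12.8 to 17.8 M. Values are normalized counts, that is reads divided by a size factor per library, and each difference is old minus young in log2(normalized count + 1), so changes of weakly expressed genes come out too small. A floor of 3 reads stood for 1.93 to 3.77 normalized counts. Pairs of libraries correlated across genes with r between 0.786 and 0.828 within the young group, between 0.829 and 0.869 within the old group and between 0.757 and 0.844 across the ages. Some libraries stood apart in single gene groups. In old replicate 1 the light chain gene Igkc reached 312300 normalized counts, or 1.82% of all reads, where the remaining libraries had 18.8 to 38.6. The joining chain gene Igj reached 60227 (0.351% of reads), where they had 3.58 to 13.5. Young replicate 1 was high in mitotic genes, as given below.

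With 1 mean per group and a spread shared by all 12 libraries, limma called 76 of 14803 tested genes higher in old IL27RA- cells (0.513% of genes) and 23 lower (0.155%), 99 in all (0.669%), at an adjusted p of 0.05. The values of the old and young libraries did not overlap for any of the 99 genes, while 7.8% of all tested genes lay wholly higher and 6.71% wholly lower in the old libraries. The median difference over all tested genes was 0.04, and 52.1% were positive. A fit of the 6 IL27RA- libraries alone called 0 genes (smallest adjusted p = 0.102, limma), with 1295 genes (8.75%) at an unadjusted p under 0.05. That fit uses the same group means, so each difference and its sign were the same by construction. All 99 genes had an unadjusted p under 0.05 there, but they were chosen from these same values, so this adds no support. The counts also moved with single libraries. They were 204 higher and 75 lower without young replicate 1, 32 and 13 without old replicate 1, 24 and 10 without old replicate 2, and 24 and 10 without old replicate 3, and the lower genes numbered 15 without young replicate 3. Of the 99 genes, 22 stayed called whichever of the 12 libraries was left out. In these pooled cells a change in RNA per cell cannot be told apart from a change in how many of the cells express a gene.

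**Figure D1:**
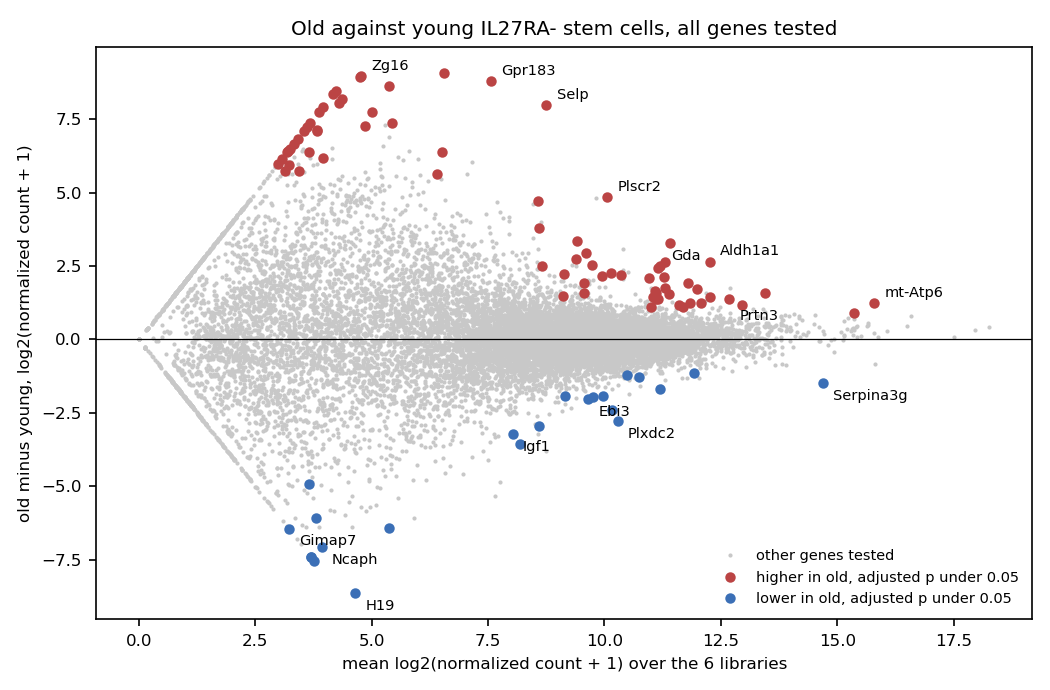
Each point is 1 of the 14803 tested genes, with its mean log2(normalized count + 1) over the 6 IL27RA- libraries on the x axis and the old minus young difference on the y axis. Red points are the 76 genes called higher and blue points the 23 called lower in old cells. The increases reach from near-silent genes such as Zg16 to the abundant mt-Atp6.

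The mRNA of the sorted receptor did not separate the ages. Il27ra measured 1418, 711 and 1564 normalized counts in young replicates 1, 2 and 3 and 1075, 1430 and 1632 in the old ones. The groups overlapped, and the difference was 0.22 ± 0.32 (log2, SE; limma adjusted p = 0.82). By exact permutation of the 6 libraries (two-sided) p was 0.6, and 3 against 3 libraries cannot go below 0.1.

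Genes for adhesion and homing gave 5 of the increases. Of 25 tested members of that list, Selp, Gpr183, Alcam, Jam2 and Itga6 rose and 0 fell. Of its differences, 13 were positive and 12 negative. The list median was 0.19 (-0.04 without young replicate 3, 0.46 without old replicate 1 and 0.09 without old replicate 3). Of all tested genes, 0.513% were called higher and 0.155% lower, and these shares apply to the list counts below. All lists were drawn up with results of these data known, so their counts are descriptions. Selp encodes P-selectin, an adhesion molecule of platelets and endothelium. It measured 3.18, 7.16 and 584 normalized counts in the young libraries and 4872, 5989 and 11056 in the old ones, a difference of 7.98 ± 1.23 (log2, SE; limma adjusted p = 0.00764). Young replicate 3 carried most of the young signal, and its value was still far below that of the lowest old library. Gpr183, a receptor for oxysterols that guides immune cells, measured 29.5, 0.716 and 12.9 in young and 2297, 5208 and 5317 in old libraries. The difference was 8.80 ± 1.20 (adjusted p = 0.00618), and every old library was far above every young one.

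Alcam (the adhesion molecule CD166) measured 812, 970 and 1176 normalized counts in young and 8067, 4180 and 4311 in old libraries, a difference of 2.43 ± 0.33 (limma adjusted p = 0.00618). Old replicate 1 was the highest, and the old values exceeded the young ones without it as well. The junctional adhesion molecule gene Jam2 rose from 472 ± 106 to 2136 ± 549 (SD, n = 3). Itga6, the integrin chain CD49f used to sort stem cells, rose from 3095 ± 895 to 8531 ± 3148, and its largest adjusted p was 0.0912, without old replicate 1.

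**Figure D2:**
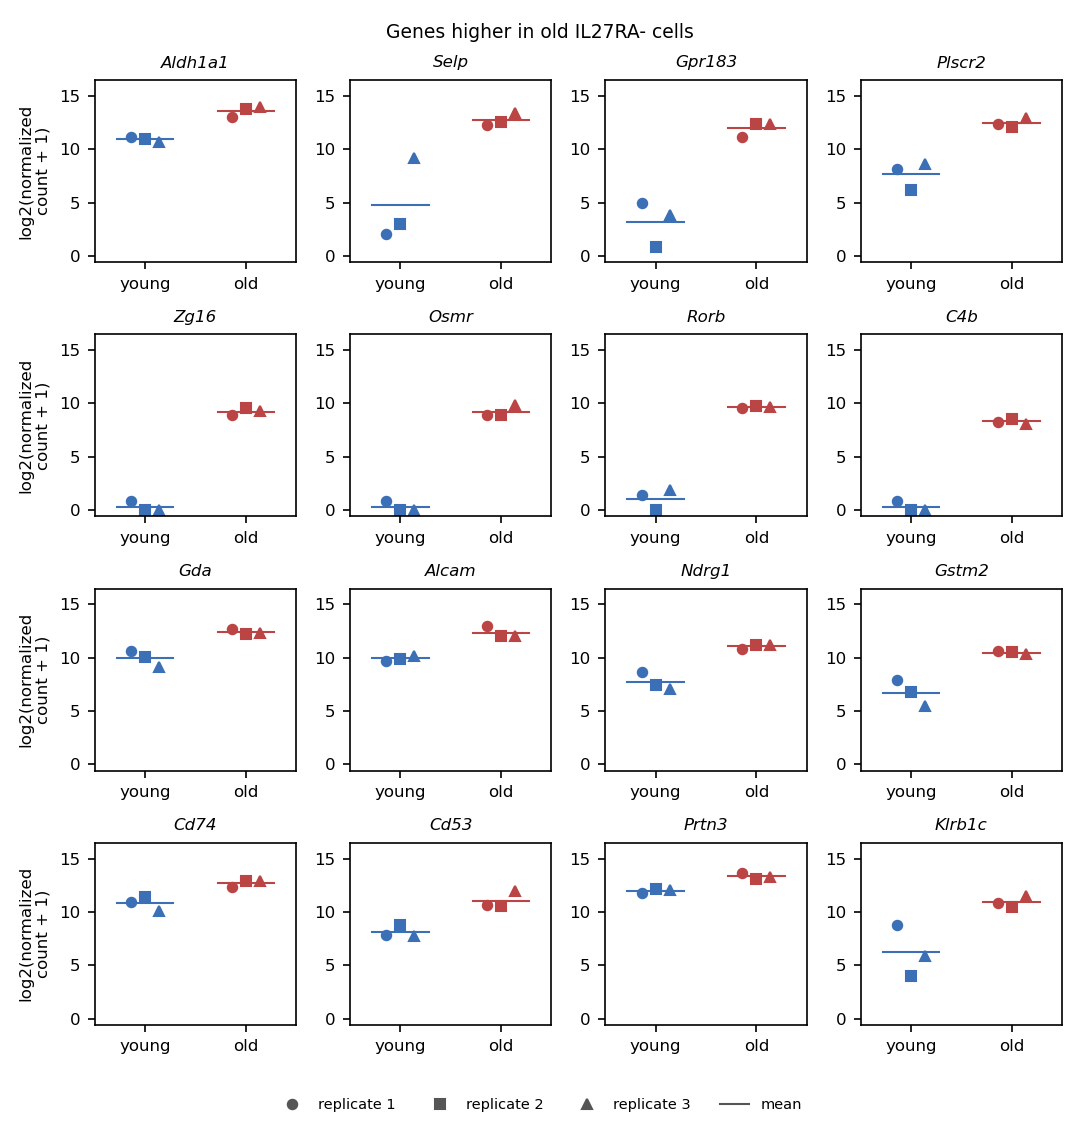
Values of 16 genes called higher in old IL27RA- cells, as log2(normalized count + 1) on the y axis, for the 3 young (blue) and 3 old (red) libraries. Symbols mark the replicate and lines the group mean. Zg16, Osmr, Rorb and C4b lie at or near 0 in young libraries, while Aldh1a1, Gda, Alcam and Prtn3 are high at both ages, and no panel shows overlapping groups.

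Aldh1a1, a retinaldehyde dehydrogenase that makes retinoic acid, had the smallest p of all genes. It measured 2272, 1989 and 1653 normalized counts in young and 8342, 13951 and 15957 in old libraries. Its mean was 6.47-fold higher in old cells, with a difference of 2.65 ± 0.24 and a 95% interval of 2.13 to 3.17 (limma adjusted p = 0.000324). Leaving out single libraries gave adjusted p values of at most 0.00552.

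The windows before the start sites of Aldh1a1, Gpr183 and Osmr, which rose, and of Ncaph, which fell, are shown because these genes have some of the smallest p values in the comparison, and because the windows differ in their content of CpG, the dinucleotide that DNA methylation acts on. They hold the 250 bases before the annotated start on the gene's strand (RefSeq, GRCm38.p6), with each CpG in capitals. The window of Aldh1a1 lies at chr19:20492333-20492582 (plus strand) with 3 CpG, that of Gpr183 at chr14:121965194-121965443 (minus strand) with 2, that of Osmr at chr15:6874314-6874563 (minus strand) with 18 and that of Ncaph at chr2:127133955-127134204 (minus strand) with 19.
Aldh1a1: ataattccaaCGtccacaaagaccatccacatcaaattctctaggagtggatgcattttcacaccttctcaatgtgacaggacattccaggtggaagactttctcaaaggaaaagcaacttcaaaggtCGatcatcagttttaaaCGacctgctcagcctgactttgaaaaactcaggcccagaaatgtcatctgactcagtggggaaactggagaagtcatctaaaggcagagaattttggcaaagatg
Gpr183: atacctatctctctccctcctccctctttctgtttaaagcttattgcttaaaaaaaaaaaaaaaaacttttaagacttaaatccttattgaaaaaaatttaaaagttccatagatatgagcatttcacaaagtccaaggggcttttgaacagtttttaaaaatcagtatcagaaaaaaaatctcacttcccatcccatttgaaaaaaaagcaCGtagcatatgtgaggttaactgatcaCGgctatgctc
Osmr: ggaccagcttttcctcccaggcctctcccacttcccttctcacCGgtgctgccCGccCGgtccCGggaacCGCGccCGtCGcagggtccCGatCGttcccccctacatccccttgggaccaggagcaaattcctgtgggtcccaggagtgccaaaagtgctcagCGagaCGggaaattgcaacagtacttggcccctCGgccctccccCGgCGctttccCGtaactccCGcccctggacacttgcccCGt
Ncaph: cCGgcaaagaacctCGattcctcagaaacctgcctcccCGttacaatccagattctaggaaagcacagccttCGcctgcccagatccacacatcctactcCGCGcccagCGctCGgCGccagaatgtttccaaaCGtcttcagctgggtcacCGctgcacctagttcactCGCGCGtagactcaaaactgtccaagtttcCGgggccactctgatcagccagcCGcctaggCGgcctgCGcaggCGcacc

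Such windows were matched for 47 of the 76 higher genes, 17 of the 23 lower genes and 10672 tested genes in all. The median was 10 CpG per window for the higher genes, 13 for the lower genes and 15 for all. Fewer than 5 CpG stood in 31.9% of the windows of higher genes (15 of 47), in 23.5% of those of lower genes (4 of 17) and in 13% of all. Among genes with a mean log2 value of at least 10, the median was 6 CpG for the 20 higher genes and 17 for all 2841. These are counts of letters in the reference and say nothing about methylation in these cells.

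Nuclear receptor and retinoid genes had 3 of 25 tested members higher, Aldh1a1 and Rorb among them, and 0 lower, with a median of 0.58 and 20 positive members. The median was 0.19 without young replicate 2, 0.12 without young replicate 2 and old replicate 1, and 0.97 without young replicate 1. Rorb, a retinoid-related orphan receptor, measured 1.59, 0 and 2.57 normalized counts in young and 785, 884 and 806 in old libraries (8.62 ± 1.40, limma adjusted p = 0.0123). Rorb was near-silent in every young library and present in every old one. Leaving out 1 library raised its adjusted p to at most 0.058 (old replicate 2). The retinol dehydrogenase gene Rdh10 missed the threshold, with 618, 168 and 211 against 2142, 1382 and 1346 normalized counts (2.50 ± 0.54, adjusted p = 0.0517).

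Among receptor chains and cytokines of the gp130 family, Osmr rose and Ebi3 fell, with 14 members tested and a median of 0.11 (-0.06 without young replicate 2). Osmr encodes the oncostatin M receptor chain that pairs with gp130. It had 1 read in the young libraries together and measured 493, 474 and 919 normalized counts in the old ones, a difference of 8.95 ± 1.12 (limma adjusted p = 0.00406). The ratio of old to young was 2557, with a 95% counting interval of 458 to 101072. Ebi3, the IL27 subunit, measured 1506, 1826 and 1566 in young and 516, 391 and 313 in old libraries, 4.01-fold lower in old cells (-2.03 ± 0.35, adjusted p = 0.0175, and 0.0758 without old replicate 3). The gp130 gene Il6st measured 1118, 971 and 770 against 39.5, 881 and 633 (-1.74 ± 0.81, adjusted p = 0.399), and the low value was that of old replicate 1 alone.

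Below these receptors, 0 of 22 tested JAK, STAT and SOCS genes were called, 1 was higher and 4 were lower at an unadjusted p under 0.05, and the median was -0.17 (-0.09 without old replicate 1 or 2). Of all tested genes, 6.68% were higher and 5.8% lower at that unadjusted threshold, and these shares apply to all such list counts below. The feedback inhibitor Socs3 measured 213, 7.16 and 205 normalized counts in young and 1286, 1461 and 2861 in old libraries (4.62 ± 1.01, limma adjusted p = 0.0546). Socs2 went from 1935, 678 and 1209 to 169, 171 and 1.26 (-4.85 ± 1.26, adjusted p = 0.11). Neither gene passed the threshold, although its groups did not overlap. Stat3 measured 4604, 6032 and 5820 against 5542, 7613 and 8663 (0.39 ± 0.26, adjusted p = 0.56).

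Of 40 genes listed as reported to rise in aged mouse stem cells, 19 rose and 0 fell, 39 were positive, and the median difference was 2.14. The list was drawn up with results of these libraries known, so its count is a description. Apart from those named above, it holds Zg16, Nupr1, Plscr2, Sdpr, Fhl1, Ehd3, Gda, Ndrg1, Gstm2, Clec1a and Clca1. Zg16, a secreted lectin, had 1 read in the young libraries together and 474, 753 and 619 normalized counts in the old ones (8.96 ± 1.09, limma adjusted p = 0.00381). Ndrg1, a gene that responds to stress and differentiation, measured 399, 173 and 136 in young and 1842, 2400 and 2280 in old libraries (3.35 ± 0.39, adjusted p = 0.00278). The old libraries agreed closely for both genes.

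The phospholipid scramblase gene Plscr2 measured 284, 70.8 and 381 normalized counts in young and 5314, 4352 and 7993 in old libraries (4.84 ± 0.83, limma adjusted p = 0.0155, and 0.0753 without old replicate 3). Its paralog Plscr1 rose too, from 1287 ± 541 to 3858 ± 276 (SD, n = 3). Gstm2 and Gstm1, neighbouring glutathione S-transferase genes, rose from 128 ± 96.7 to 1442 ± 154 and from 5383 ± 1407 to 11920 ± 1374. In both pairs the copies are similar, and the counting may have moved reads between them. Gda, the guanine deaminase gene, rose from 1084 ± 518 to 5637 ± 1063, and Nupr1, a stress-induced nuclear protein gene, from 1085 ± 504 to 6363 ± 1120.

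The LIM-domain gene Fhl1 rose from 1426 ± 384 to 4648 ± 452 normalized counts (SD, n = 3) and Ehd3, which acts in endocytic recycling, from 1029 ± 494 to 4151 ± 579. Both stayed called whichever library was left out. Of the 21 listed genes that were not called, the metallothionein gene Mt1 measured 37.4, 2.15 and 10.9 in young and 275, 234 and 178 in old libraries (4.33 ± 1.02, limma adjusted p = 0.0798). Matn4 measured 54.9, 0 and 94 against 1066, 818 and 1747 (6.04 ± 1.36, adjusted p = 0.0617). Vwf, a platelet and stem cell gene, measured 2601, 2676 and 3179 against 3622, 2692 and 3575 (0.22 ± 0.23, adjusted p = 0.747), with overlapping groups.

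Genes of stem cell identity gave no call. Of 26 tested surface and transcription factor genes, 0 passed the threshold, 3 were higher and 0 lower at an unadjusted p under 0.05, and the median was 0.06 (0.20 without young replicate 1, -0.05 with voom and -0.03 with scaling to totals). Procr, the surface receptor EPCR, measured 8703, 9579 and 9582 normalized counts in young and 15274, 14537 and 11868 in old libraries (0.57 ± 0.19, limma adjusted p = 0.23). The transcription factor gene Hlf measured 6751, 7770 and 7653 against 11028, 8253 and 10122 (0.40 ± 0.21, adjusted p = 0.448), and Mecom 4468, 4015 and 4898 against 2090, 4421 and 4023 (-0.41 ± 0.27, adjusted p = 0.556). Fgd5, Kit and Hoxb5 were likewise present in all 6 libraries, so these markers did not conflict with the stem cell label. Cd48, a marker of later progenitors, was at 0 in 5 libraries and at 0.963 in old replicate 1. Cd34, also listed beforehand as low in stem cells, was not low. Its mean log2 value over the 6 libraries was 11.45, with a difference of -0.42 ± 0.25 (limma adjusted p = 0.517).

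**Figure D3:**
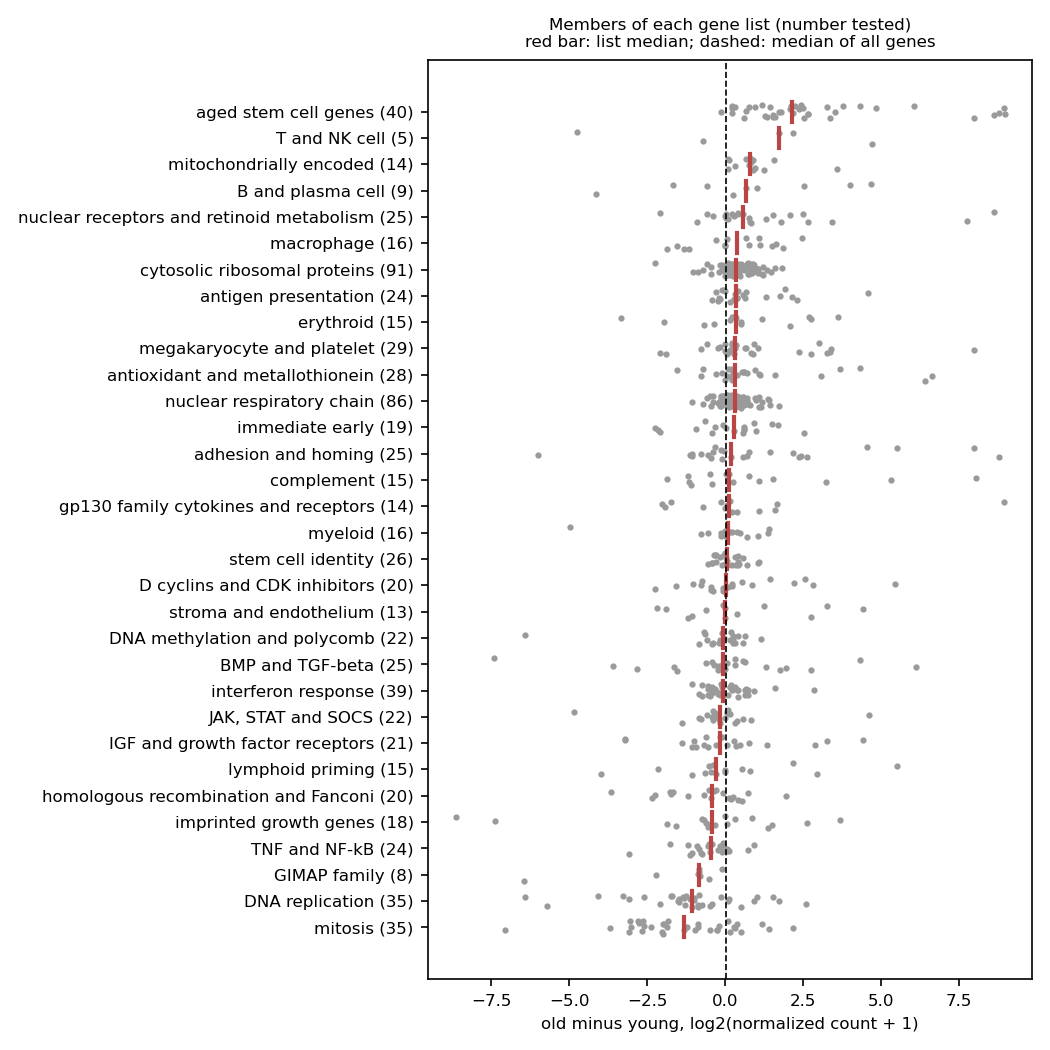
Each grey point is the old minus young difference (log2(normalized count + 1), x axis) of 1 member of a gene list, for the lists with at least 5 tested members (number tested in brackets, y axis). Red bars mark list medians and the dashed line the median of all genes, 0.04. The aged stem cell list has its median at 2.14, the mitosis list at -1.31.

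Megakaryocyte and platelet genes had 3 of 29 tested members higher, 0 lower and a median of 0.32. Selp was one, and Sdpr (Cavin2, a protein of caveolae) rose from 1067 ± 774 to 8973 ± 3411 normalized counts (SD, n = 3; 3.27 ± 0.56, limma adjusted p = 0.0162). Plek, the platelet signalling protein pleckstrin, rose from 311 ± 246 to 1838 ± 725 (2.75 ± 0.54, adjusted p = 0.0296). Selp and Sdpr are members of the aged list as well. Leaving out 1 library raised the adjusted p of Plek to at most 0.121 and that of Sdpr to at most 0.0754.

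In the myeloid list, Prtn3 alone of 16 tested members rose, with a median of 0.08 (-0.10 with quantile normalization). Prtn3, the granule protease proteinase 3, measured 3566, 4435 and 4191 normalized counts in young and 13152, 9035 and 9885 in old libraries (1.38 ± 0.21, limma adjusted p = 0.00764). Other granule enzymes of that lineage were at or near 0. Mpo was at 0 in all 6 libraries, and Elane at 0 in 5 of them and at 2.51 in old replicate 3. Of 15 erythroid genes, 0 were called, 1 was higher and 1 lower at an unadjusted p under 0.05, and the median was 0.33, but 1.60 without young replicate 1 and 0.09 without young replicate 3.

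In the lymphoid priming list, 1 of 15 tested members rose, the tetraspanin gene Cd53, and 0 fell, with a median of -0.30 (0.00 without old replicate 3 or young replicate 2, and 0.12 with voom). Cd53 measured 233, 439 and 210 normalized counts in young and 1629, 1541 and 3925 in old libraries (2.94 ± 0.45, limma adjusted p = 0.00764). Satb1, a chromatin organizer of lymphoid genes, measured 252, 286 and 68.2 against 33.7, 5.19 and 5.02 (-3.97 ± 1.17, adjusted p = 0.16). Its groups did not overlap, but the difference did not pass the test.

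The GIMAP genes, GTPases of lymphocytes and their precursors, lay lower in old cells as a family. All 8 differences were negative, 6 had an unadjusted p under 0.05 where 5.8% of all genes did so in that direction, and the median was -0.85. Gimap7 alone fell. It measured 121, 71.6 and 72.7 normalized counts in young libraries and had no read in any old one, at least 27.2-fold lower against 3 reads per library (-6.44 ± 1.14, limma adjusted p = 0.0185, and 0.0704 without old replicate 3). Gimap6 measured 6009, 4923 and 8284 against 3084, 3605 and 3707 (-0.86 ± 0.21, adjusted p = 0.0918).

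Immune genes beyond these lists changed singly. Cd74, the invariant chain of MHC class II, was the 1 of 24 tested antigen presentation genes that rose, with 0 lower and a median of 0.35 (0.24 without young replicate 3 and 0.54 without young replicate 2). It measured 2008, 2737 and 1100 normalized counts in young and 5296, 7798 and 7867 in old libraries (1.92 ± 0.41, limma adjusted p = 0.0462, and 0.154 without old replicate 3). The class II gene H2-Eb1 measured 213, 3195 and 413 against 2921, 3664 and 3228 (2.31 ± 0.71, adjusted p = 0.174), and young replicate 2 lay with the old libraries. Of 39 interferon response genes, 0 were called, 4 were higher and 1 lower at an unadjusted p under 0.05, and the median was -0.07 (-0.14 without old replicate 3 to 0.02 without old replicate 1). The TNF and NF-kB list had 0 of 24 called, 1 higher and 2 lower at an unadjusted p under 0.05, and a median of -0.44 (-0.16 without old replicate 1 and -0.28 without young replicate 1 or 2). Immediate early genes, which respond to handling as well as to signals, had 0 of 19 called, 2 higher and 1 lower at an unadjusted p under 0.05, and a median of 0.30. That sign did not hold throughout, with -0.04 without old replicate 2, -0.03 with voom and -0.01 with quantile normalization.

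The complement gene C4b had 1 read in the young libraries together and 315, 376 and 276 normalized counts in the old ones (8.04 ± 1.19, limma adjusted p = 0.00764). It was the 1 of 15 tested complement genes that rose, with 0 lower and a median of 0.13 (-0.19 without young replicate 3), and its near-identical copy C4a may share its reads. Klrb1c, the NK cell receptor NK1.1, measured 445, 15 and 57.3 in young and 1784, 1395 and 2922 in old libraries (4.70 ± 0.87, adjusted p = 0.0235, and 0.109 without old replicate 3). It was the 1 of 5 tested T and NK cell genes that rose, with 0 lower. Among other genes of those cells, Nkg7 was low, at 0 to 10.3 in young and 6.28 to 30.8 in old libraries. Lck was more abundant, with a mean log2 value of 6.2 over the 6 libraries and a difference of -0.71 ± 0.89 (limma adjusted p = 0.79).

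Many increases started from silence. Of the 76 higher genes, 29 had a young mean under 10 normalized counts, 14 of these had no read in any young library, and 43 had a young mean over 100. Cdh22, among those 14, measured 117, 43.6 and 67.8 in the old libraries and at most 2.34 in any other library, IL27RA+ included. It therefore entered the test only through the old libraries where it was high. Cdh22 was tested in 9 of the 12 leave-one-out fits and called in 1. Trpm6, a magnesium channel, measured 256, 179 and 216 in the old libraries, at least 101-fold higher than 3 reads per young library (limma adjusted p = 0.0254). Tdrd9, a helicase known from germ cells, measured 129, 411 and 635 (at least 182-fold, adjusted p = 0.0123), and Ripk4, a kinase known from skin, 200, 342 and 645 (at least 184-fold, adjusted p = 0.0229). Tdrd9 and Ripk4 varied widely among the old libraries, while Rorb was nearly level.

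Antioxidant and metallothionein genes had 2 of 28 tested members higher, Gpx8 and Mt2, 0 lower, a median of 0.31 and 23 positive. The median was 0.11 without young replicate 2 and 0.56 without young replicate 1. Both had no young read. Gpx8, a peroxidase of the endoplasmic reticulum, measured 159, 127 and 47.7 normalized counts in old libraries (limma adjusted p = 0.0177) and the metallothionein Mt2 124, 69.5 and 67.8 (adjusted p = 0.0253). Gadd45g, a stress gene that slows the cycle, rose from 478, 902 and 535 to 2723, 3219 and 2573 (2.20 ± 0.41, adjusted p = 0.0235) and was the 1 of 20 tested genes of cycle entry and exit that rose, with 0 lower and a median of 0.01 (-0.18 without old replicate 2 to 0.19 without old replicate 3). Leaving out 1 library raised the adjusted p of the 3 genes to at most 0.102.

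The decreases included imprinted genes, which are expressed from 1 parental copy. Of 18 tested members, H19 and Plagl1 fell and 0 rose, with a median of -0.41. That median was -0.03 without old replicate 2, -0.15 without young replicate 3, -0.20 without old replicate 3 and -0.25 without young replicate 1. H19, a long noncoding RNA of fetal growth control, measured 376, 1156 and 280 normalized counts in young and 0.963, 0 and 0 in old libraries (-8.63 ± 1.67, limma adjusted p = 0.0279, and 0.108 without young replicate 2). Plagl1, a zinc finger regulator of the imprinted network, measured 303, 90.2 and 169 in young libraries and had no old read, at least 57.5-fold lower (-7.39 ± 1.37, adjusted p = 0.0235, and 0.0847 without old replicate 2). Cdkn1c, the cell cycle inhibitor p57, measured 1569, 3992 and 4443 against 409, 917 and 2731 (-1.59 ± 0.55, adjusted p = 0.245), and its groups overlapped.

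The growth factor genes Igf1 and Bmp8a fell, and Ntf3 rose. Igf1, insulin-like growth factor 1, measured 603, 801 and 1039 normalized counts in young and 69.3, 81 and 107 in old libraries, 9.51-fold lower (-3.22 ± 0.57, limma adjusted p = 0.0178, and 0.0678 without young replicate 3). It was the 1 of 21 tested IGF and growth factor receptor genes that fell, with 0 higher and a median of -0.17 (-0.03 without old replicate 2). Bmp8a, a bone morphogenetic protein, measured 81.2, 155 and 375 in young libraries and had no old read (-7.40 ± 1.22, adjusted p = 0.0123, and 0.0608 without old replicate 3). Bmp8a had no read in any IL27RA+ library either, so it entered the test only through the young libraries where it was high. It was tested in 9 of the 12 leave-one-out fits and called in 7. It was the 1 of 25 tested BMP and TGF-beta genes that fell, with 0 higher and a median of -0.06 (between -0.26 without young replicate 3 and 0.14 without young replicate 2). Ntf3, a neurotrophin, had 1 read in the young libraries together and 314, 59.2 and 234 normalized counts in the old ones (7.08 ± 1.20, adjusted p = 0.0151). Tgfb3 lay the other way, at 0, 0 and 8.37 against 116, 101 and 272 (6.13 ± 1.38, adjusted p = 0.0617).

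**Figure D4:**
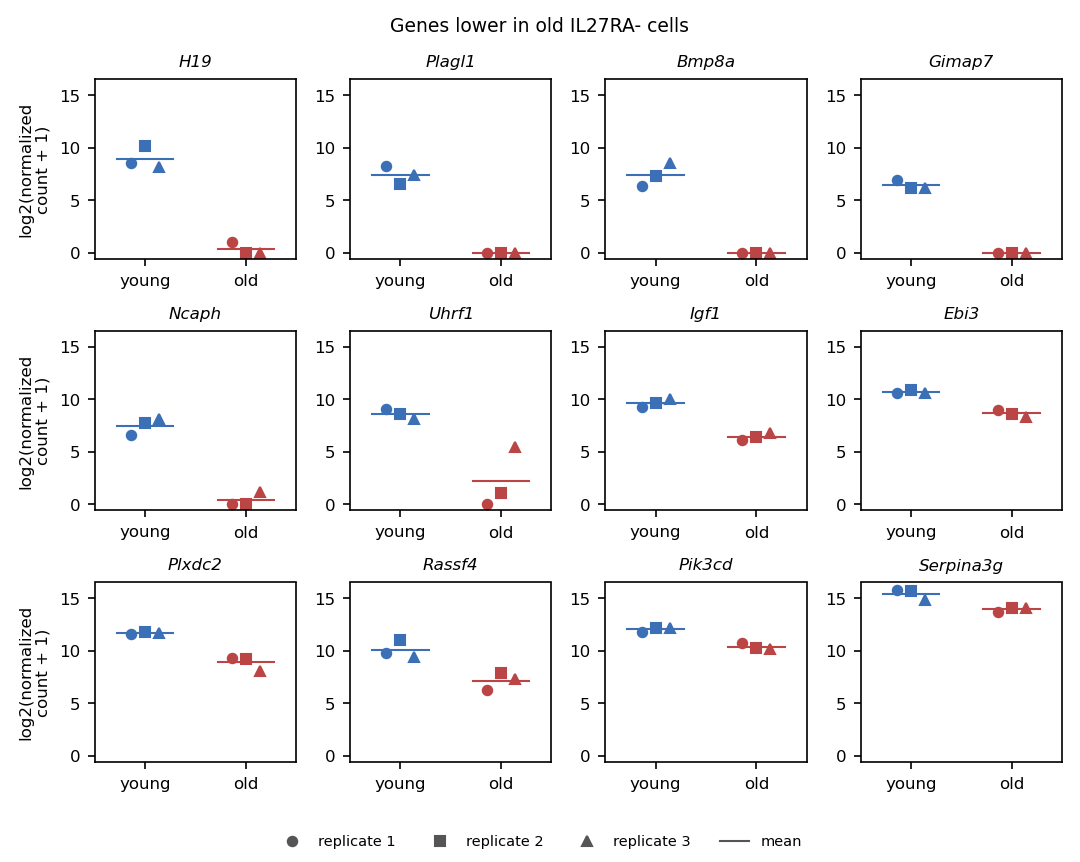
Values of 12 genes called lower in old IL27RA- cells, as log2(normalized count + 1) on the y axis, for the 3 young (blue) and 3 old (red) libraries. Symbols mark the replicate and lines the group mean. H19, Plagl1, Bmp8a, Gimap7 and Ncaph sit at or near 0 in old libraries, while Pik3cd and Serpina3g are lower but abundant.

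More abundant genes fell by smaller amounts. Plxdc2, a membrane protein gene, measured 3027, 3547 and 3195 normalized counts in young and 651, 602 and 270 in old libraries (-2.78 ± 0.42, limma adjusted p = 0.00764) and stayed called whichever library was left out. Pik3cd, the leukocyte PI3-kinase catalytic chain p110 delta, fell from 4229 ± 676 to 1335 ± 325 (SD, n = 3; adjusted p = 0.0123). Serpina3g, a serine protease inhibitor of blood progenitors with close paralogs, fell from 46112 ± 14958 to 15861 ± 2653 (adjusted p = 0.0229). Of the 23 lower genes, 13 kept an old mean over 100, 8 had an old mean under 10 and 4 had no old read. The cyclin L2 gene Ccnl2 and Cherp, both tied to splicing, fell 2.28-fold and 2.29-fold and were among the smallest changes called.

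Among cell division genes, 1 replication gene and 1 mitosis gene of the lists were called, and both fell. In the DNA replication list, 1 of 35 tested genes fell, 0 rose, 14 were lower at an unadjusted p under 0.05 (5.8% of all genes), 13 had groups that did not overlap (6.71% of all genes), and the median was -1.07. Uhrf1, which couples DNA methylation to replication, was the gene called. It measured 529, 386 and 275 normalized counts in young and 0, 1.04 and 42.7 in old libraries (-6.43 ± 1.08, limma adjusted p = 0.0141, and 0.058 without old replicate 2). Uhrf1 was also the 1 of 22 DNA methylation and polycomb genes that fell, with 0 higher and a median of -0.06 (-0.11 to 0.06 without each library in turn). The licensing genes Mcm7 and Cdt1 measured 2222, 3139 and 3131 against 1137, 1147 and 1568 (-1.14 ± 0.25, adjusted p = 0.0575) and 459, 1385 and 1249 against 61.6, 193 and 295 (-2.60 ± 0.62, adjusted p = 0.0831). Without each of the 6 libraries in turn, the median of the list was between -1.26 and -0.84.

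In the mitosis list, 1 of 35 tested genes fell, 0 rose, 8 were lower at an unadjusted p under 0.05, and the median was -1.31. That median rested on young replicate 1, and without it was 0.12, and without both young replicate 1 and old replicate 1 it was 0.05. Ncaph, a condensin I subunit, was the gene called, with 93.9, 211 and 268 normalized counts in young and 0, 0 and 1.26 in old libraries (-7.06 ± 0.91, limma adjusted p = 0.00442). It stayed called whichever library was left out, and young replicate 1 held its lowest young value. Outside the list, the kinetochore gene Dsn1 also fell, from 1130 ± 216 to 305 ± 114 (SD, n = 3), and its call held in 9 of the 12 leave-one-out fits. Homologous recombination and Fanconi genes had 0 of 20 called, 2 lower and 0 higher at an unadjusted p under 0.05, and a median of -0.40 (-1.0 without old replicate 2 and -0.67 without young replicate 3).

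**Figure D5:**
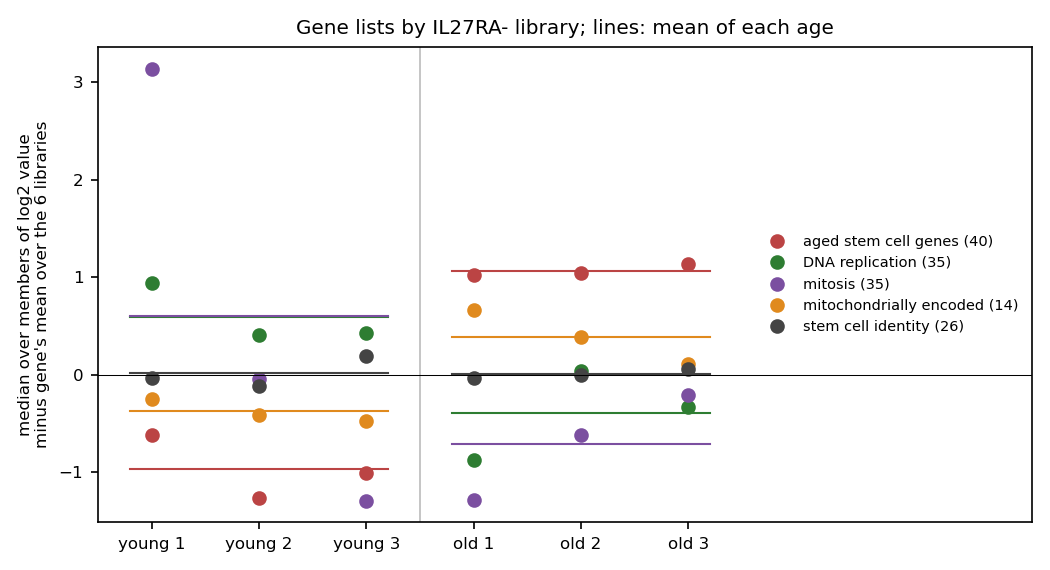
For 5 gene lists (tested members in brackets), the y axis gives the median over members of the log2 value minus the gene's own mean over the 6 libraries, for each library on the x axis. Lines mark the mean of each age. The aged stem cell list lies between 1.02 and 1.13 in old libraries and between -1.27 and -0.62 in young ones, while the mitosis list reaches 3.14 in young replicate 1 and -1.30 in young replicate 3.

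Transcripts of the mitochondrial genome lay higher in old IL27RA- cells. The 14 tested members were all positive with a median of 0.80 (0.61 to 0.95 without each library in turn), 8 were higher at an unadjusted p under 0.05 (6.68% of all genes), and mt-Atp6 and mt-Nd1 rose. The ATP synthase transcript mt-Atp6 measured 38504, 37564 and 35484 normalized counts in young and 102834, 90654 and 72117 in old libraries (1.24 ± 0.23, limma adjusted p = 0.0238, and 0.0957 without old replicate 2). The complex I transcript mt-Nd1 measured 29710, 30899 and 32362 against 64228, 61685 and 47221 (0.88 ± 0.19, adjusted p = 0.0454), and was called in 0 of the 12 leave-one-out fits. The abundant mt-Co1 and mt-Rnr2 overlapped between the ages. Mitochondrial transcripts took 4.07%, 4.58% and 4.01% of reads in young and 6.8%, 5.76% and 4.06% in old libraries, so old replicate 3 lay with the young ones. Nuclear respiratory chain genes had 0 of 86 called, 4 higher and 0 lower at an unadjusted p under 0.05, and a median of 0.30, and cytosolic ribosomal protein genes 0 of 91 called, 3 higher and 2 lower, and a median of 0.36. Without young replicate 2 both medians were 0.13, and without young replicate 1 they were 0.53 and 0.68. In IL27RA+ cells the medians of the mitochondrial, nuclear respiratory chain and ribosomal lists were -0.07, -0.06 and -0.15. The difference between the fractions was not tested for these lists.

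The 6 IL27RA+ libraries give a separate age difference, although both differences use a spread estimated over all 12 libraries. Of the 76 genes higher in old IL27RA- cells, 31 were called in IL27RA+ cells and 72 had a positive difference there, as did 53% of all tested genes. Of the 23 lower genes, 3 were called and 18 were negative, as were 46.9% of all. In all, 0.426% of genes were called in that fraction. The test of the difference between the fractions called 0 genes (smallest adjusted p = 0.169, limma), with 769 genes (5.19%) at an unadjusted p under 0.05, and voom also called 0. With 1 library left out the count was 5 without young IL27RA- replicate 1, 2 without young IL27RA- replicate 3 (Aspa and Selp), 1 without old IL27RA- replicate 3, 1 without young IL27RA+ replicate 1 and 0 in the other fits. Ncaph had one of the smallest p values in that test. In IL27RA+ cells it measured 377, 545 and 107 normalized counts in young and 505, 460 and 493 in old libraries, and the difference between the fractions was -7.86 ± 1.29 (adjusted p = 0.169). For Uhrf1 that value was -6.94 ± 1.52 (adjusted p = 0.614), and 1 fit, without old replicate 3, called it (-8.59, adjusted p = 0.00767). The mitosis and replication medians were 1.15 and 0.62 in IL27RA+ cells, against -1.31 and -1.07 in IL27RA- cells, and the difference was not tested for the lists. Aldh1a1 differed between the ages by 2.35 in IL27RA+ cells, close to its 2.65 here.

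Among markers of other marrow cells, the antibody genes of old replicate 1 stood out. Of 9 tested B and plasma cell genes, 0 were called, 1 was lower and 0 higher at an unadjusted p under 0.05, and the median of 0.68 became -0.04 without old replicate 1. The summed normalized counts of that list were 14652, 7833 and 7222 in young and 378775, 8221 and 5503 in old libraries, and Cd79a was at 432 in old replicate 1 and at 0 to 29.6 in the others. Outside old replicate 1 most of the sum came from Xbp1 (3791 to 13292), a stress response factor not limited to plasma cells, and from Cd79b (673 to 1425). Of 16 macrophage genes, 0 were called, 2 were lower and 0 higher at an unadjusted p under 0.05, and the median was 0.37 (-0.05 without young replicate 2). That list summed to 1579 to 1936 in young and 974 to 1217 in old libraries, and Emr1, at 0 in all 6, added nothing to these sums. Neutrophil genes (4 tested, 0 called) summed to 0.716 to 81.2 in young and 22.8 to 161 in old libraries, and mast cell and basophil genes (2 tested, 0 called) to 90.8 to 283 and 54 to 570. Of 13 stroma and endothelium genes, 0 were called, 1 was higher and 2 lower at an unadjusted p under 0.05, and the median was 0.00 (0.51 with voom and -0.28 with quantile normalization). That list summed to 5272, 5231 and 7135 in young and 4171, 3699 and 4340 in old libraries, mostly from Tie1, Emcn and Pecam1, which blood stem cells are also known to express, while the stromal genes Cxcl12 and Lepr were at 0 in all 6 libraries. Without old replicate 1, 37 of the 99 genes were still called, with Aldh1a1, Osmr, Zg16, Gpr183, Selp and Ncaph among them. The part of plasma cell RNA in the other genes of that library was not tested.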

How the data were processed

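The table was deposited as log2(normalized count + 1) per gene. FastQC 0.11.5, TopHat2 2.1.1, HTSeq and DESeq2 stand in the submitters' processing notes, with no role or order, and the sources used here name no genome build. Of 20473 lines, 1 damaged line and 15 repeats were left out, 20457 genes remained, and 21 names that had become dates were restored from GENCODE. The values are whole multiples of 1 read in every library (100% within 0.001 reads), which gave the depths and the floor of 3 reads. Intervals and floors cover counting error only, since PCR copies are not told apart. Tested genes were the 14803 with a normalized count + 1 of at least 10 in at least 3 of 12 libraries. They were fitted with limma 3.58.1 with a variance trend (R 4.3.3), 1 mean for each of the 4 groups, and Benjamini-Hochberg adjustment. Named genes are Il27ra, the 15 called genes of largest difference in each direction and the 20 of highest mean (with established names and groups that do not overlap), and, of each of the 34 gene lists, its called members, its 4 of smallest p and its 2 of highest mean. Other called genes are given by value, and the 10 genes of smallest p for the difference between fractions could be named. A few genes that this rule covers are not reported here. The members and lists were chosen with earlier results of these data known. Lists have no test: their counts and medians stand beside those of all genes. Promoter windows are from RefSeq (GRCm38.p6). The code was tested on simulated data. Changes were set there only in genes with a read in all 12 libraries, so that test did not cover genes silent at 1 age. Alternatives were voom on the recovered reads, other filters, pseudocounts and scalings, library weights, robust spread, a replicate block and leaving out libraries.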

Additional observations from a re-analysis of the deposited data

How the results depend on the processing

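The counts depended most on which libraries set the spread. With only the 6 IL27RA- libraries, limma called 0 genes higher and 0 lower, with 1295 at an unadjusted p under 0.05, and voom on the same libraries also called 0 and 0, with 1377. Without a filter on low values, 48 genes were higher. Leaving out 1 library gave 24 to 204 higher genes and 10 to 75 lower genes, with the highest counts without young replicate 1, and 90 of the 99 genes were among those called then. In the same fits the difference between the fractions called 0 to 5 genes, and the Il27ra difference ran from -0.13 (without young replicate 2) to 0.44. After the data were seen, the least weighted libraries (young 2 and old 1) were left out, which gave 19 higher and 6 lower genes, and young 1 and old 1, which gave 153 and 50, with 1 gene for the difference between the fractions. The cause was not tested. Genes with no young read that were on in old cells numbered 39, and 59 to 135 when 1 library was left out. The opposite kind numbered 18, and 26 to 45. Fewer libraries make both criteria easier to meet. All other alternatives kept each count within 1.5 times, among them voom with 12 libraries (61 and 17, with 70 of the 99 genes called) and scaling to totals (66 and 31). Scaling moved the median of all genes by less than 0.1. Same-numbered old and young libraries did not deviate together (r across genes -0.05, -0.05 and 0.03), so the numbers are not taken as pairs. With a replicate block the counts were 68 and 31, with 86 of the 99 genes called. Depth limits the near-silent genes, where 3 reads stand for 1.93 to 3.77 normalized counts, and old libraries were the shallower ones.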

Other observations

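Some of the called genes are neighbours in RefSeq's gene order. Of the 99 genes, 90 were matched, and 3 pairs were adjacent: Trpm6 with Rorb, Gstm2 with Gstm1, and Plscr1 with Plscr2. The Gstm and Plscr pairs are the similar copies named above, between which reads may have moved. Such pairs were not counted among all tested genes, so these positions are a description only. Trpm6, Rorb, Aldh1a1 and Gda all rose and lie in a single stretch with at most 4 genes between called neighbours. The genes between them did not follow as a block. Anxa1, the annexin between Rorb and Aldh1a1, measured 932, 1229 and 1516 normalized counts in young and 1267, 1106 and 1601 in old libraries (0.12 ± 0.30, limma adjusted p = 0.91). Zfand5, beside Gda, measured 4466, 3241 and 5448 against 3966, 9203 and 10823 (0.77 ± 0.31, adjusted p = 0.32), and Aldh1a7 had no read in any of the 6. Fyb, an adaptor protein of T cell signalling that rose from 1324 ± 788 to 5212 ± 218 (SD, n = 3), lies 1 gene from Osmr.

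There were 39 genes with no read in any young library and at least 10 normalized counts in every old one. The opposite pattern held for 18 genes. Of these sets, 14 and 4 genes were called, against 0.513% of all tested genes called higher and 0.155% lower. Both patterns fix the direction and keep the groups apart, and each gene passes the filter through its high libraries. The counts are therefore a description. Of the genes with no young read that were not called, Igfbp7, a secreted binding protein, measured 63.6, 72.6 and 62.8 in the old libraries. Ror2, a receptor for Wnt5a, measured 78, 88.2 and 70.3. Slpi, a protease inhibitor, measured 497, 19.7 and 21.3 there, and its high value was in old replicate 1, the library rich in antibody transcripts. In the opposite direction Cd160, a receptor of NK and T cells, measured 37.4, 22.2 and 122 in the young libraries. These genes were picked after their values were seen.

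Short motifs were searched on both strands of the promoter windows, and a match is a description only. The STAT letters TTCNNNGAA stood in 8.51% of the windows of higher genes (4 of 47), 11.8% of lower genes (2 of 17) and 5.84% of all. The ETS letters CCGGAA stood in 6.38% of the higher genes' windows (3 of 47), 29.4% of the lower genes' (5 of 17) and 22.1% of all, and they contain a CpG. The AP-1 letters TGANTCA stood in 6.38%, 5.88% and 4.2%, the GATA letters AGATAA in 4.26%, 5.88% and 5.96%, and the RUNX letters TGTGGT in 14.9%, 29.4% and 10.8%. The ROR letters AGGTCA stood in 17%, 17.6% and 10.7%, and the metal response core TGCGCNC in 14.9%, 17.6% and 21.7%.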
